A study of Mus musculus with 8 samples.

Results

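The genes described here carry glucose into retinal cells, break it down to pyruvate, exchange lactate and pass pyruvate to the mitochondrion. They were chosen by symbol and role. Glucose entry had 2 transporters, the hexokinase and hexose phosphate steps 6 genes, the triose steps 9 and lactate dehydrogenase 2. Lactate export and its partners had 6 genes, pyruvate dehydrogenase and its kinases 6, and the enzymes of fructose 2,6-bisphosphate 2. All 33 were found among the 55213 gene symbols of the count tables, and all 33 were among the 26900 genes with enough counts to be tested. RNA was sequenced from whole retinas of 8 germ-free (GF) adult male C57B1/6 mice, 4 on a normal diet (GF-ND) and 4 on a high-fat diet (GF-HFD). Feeding began at 7 weeks of age and lasted 8 weeks, so that every mouse was 15 weeks old when its retina was taken. The high-fat diet held 23% saturated fat. Neither group had a gut microbiota, all mice lived in a gnotobiotic facility on a 12-h light cycle, and no mouse with microbes was measured. The comparison therefore asks how diet bears on these genes in the absence of gut microbes. In RNA from a whole retina, fewer cells of a type and less RNA per cell cannot be told apart.

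Photoreceptors take up most of the glucose that reaches the retina and turn much of it into lactate even when oxygen is plentiful, which is known as aerobic glycolysis. Glucose enters from the choroid and the retinal vessels through facilitative transporters, and lactate leaves through monocarboxylate transporters that need the chaperone basigin at the membrane. Several steps have more than 1 gene, and the isozymes differ in tissue range and regulation: hexokinase 2, the M2 form of pyruvate kinase and lactate dehydrogenase A are the forms usually tied to aerobic glycolysis in photoreceptors.

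The libraries held 39258006 to 44357518 counts, with a median of 40099452 in GF-ND and 43269811 in GF-HFD. The 33 genes took 1.48% to 1.93% of the counts of a library, and a single member had between 135 and 120621 counts, with Slc16a8 and Slc16a7 the most sparsely counted. Levels stand as CPM, in which TMM factors bring the libraries to 1 size, in the order of mice 9, 10, 11 and 12 for GF-ND and mice 13, 15, 16 and 19 for GF-HFD, the numbers being those in the library names. The 18 rod markers were all detected and summed to 48130 to 78310 CPM in GF-ND and 80130 to 102600 CPM in GF-HFD. The 20 lens markers summed to 179 to 72600 CPM in GF-ND and 229 to 12080 CPM in GF-HFD. Rod markers therefore do not show that each library held retina alone. GF-ND mouse 11 stood apart. Its 20 lens markers averaged 9.80 on the log2 CPM scale, while mice 9, 10 and 12 had averages of 1.16 to 3.31. In GF-HFD the range was 1.22 to 6.32, with mouse 19 highest. The 12 pigment epithelium markers averaged 5.25 in mouse 11, where mice 9, 10 and 12 had 1.72 to 2.02, and were also high in GF-HFD mice 16 (5.16) and 19 (4.94).

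No member changed past the adjusted threshold. The smallest Benjamini-Hochberg adjusted p of a member was 0.649 in edgeR's quasi-likelihood test, and 0% of all genes tested passed 0.05. Most members were nonetheless fitted higher in GF-HFD: 25 of 33 had a log2 fold change above 0, with a median of 0.19. Of the 10355 genes with a mean of at least 10 CPM, as all members had, 6309 were fitted higher and their median was 0.04. At an unadjusted p under 0.05, 6 members were higher (Hk1, Pgam1, Pkm, Ldhb, Slc16a1 and Nxnl1) and 1 was lower (Pfkp). The same rule took 2.85% of all genes tested as higher and 4.53% as lower. Among genes with a mean of at least 10 CPM it took 5.16% as higher and 3.54% as lower, and 0% passed the adjusted threshold. The groups did not overlap, with every GF-HFD mouse above every GF-ND mouse, in 5 members (Gapdh, Pgam1, Pkm, Slc16a1 and Nxnl1), and no member lay wholly lower. Of all genes tested, 2.29% lay wholly higher and 2.54% wholly lower. For genes with a mean of at least 10 CPM these shares were 4.56% and 1.48%. Without GF-HFD mouse 15 no member passed the unadjusted threshold as higher, where 1.63% of all genes tested did. Without GF-ND mouse 11 there were 16 such members, and the share of all genes was then 12.1%. With library totals in place of TMM scaling, 2 members (Pgam1 and Slc16a1) passed as higher beside 1.55% of all genes, and no member lay wholly higher beside 1.38%.

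**Figure D1:**
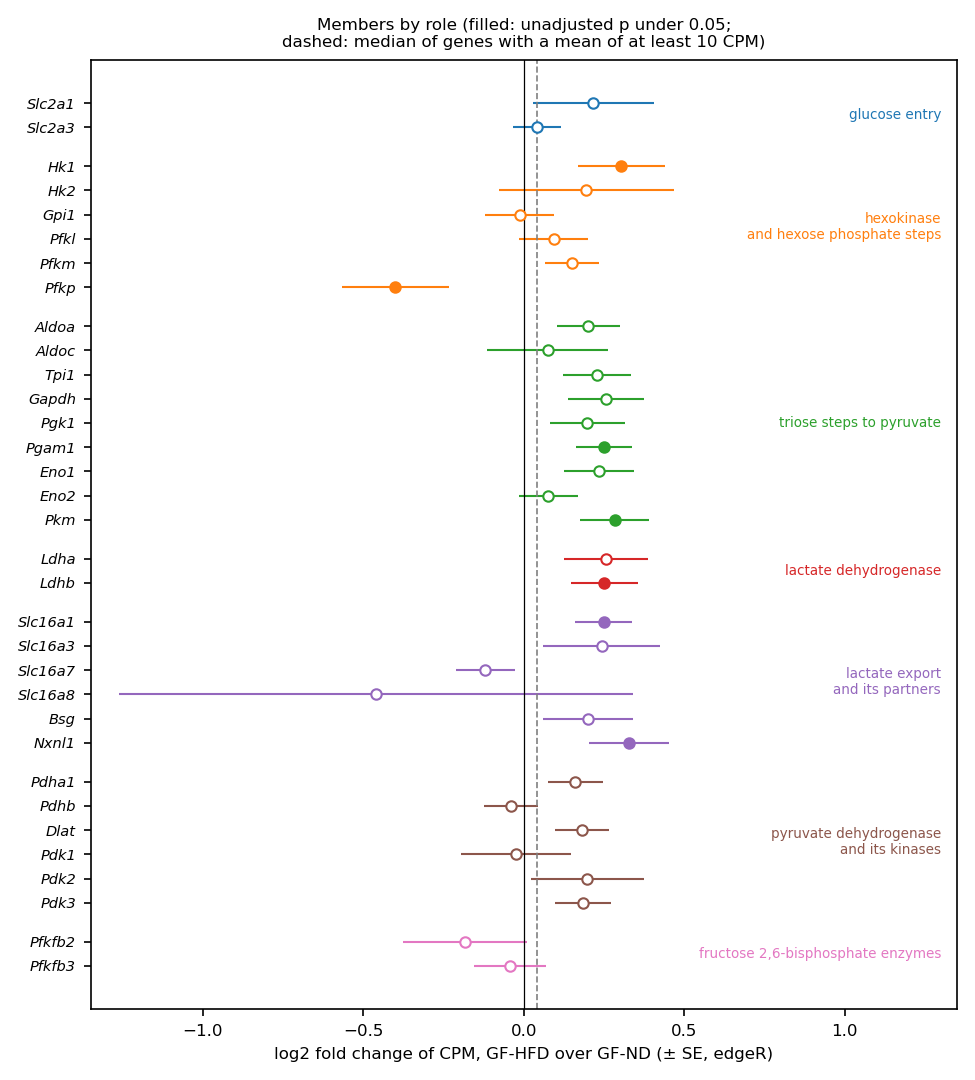
Log2 fold change of CPM (GF-HFD over GF-ND) with its standard error from edgeR for each of the 33 members, grouped by role. Filled points have an unadjusted p under 0.05, and the dashed line is the median of genes with a mean of at least 10 CPM (0.04). The 9 triose genes lie to the right of 0, and Pfkp is the filled point to the left.

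Promoter sequence was read for the members that the comparison turns on. RefSeq promoters on GRCm38.p6 were matched for 30 of the 33 members, and Bsg, Slc16a7 and Slc2a3 were not matched. The sequences printed are the bases just before the start of transcription of Slc16a1, Pgam1 and Nxnl1, which lay wholly higher in GF-HFD, and of Pfkp, the member that was lower. The windows of Gapdh and Pkm lie wholly or mostly inside the gene as annotated and are not shown. Capitals mark ACGTG, the core of hypoxia response elements, and TAATCC, a motif bound by the photoreceptor factor CRX, on either strand. CACGTG, the E-box, contains ACGTG and is in capitals whole.
Slc16a1, chr3:104638414-104638663, plus strand: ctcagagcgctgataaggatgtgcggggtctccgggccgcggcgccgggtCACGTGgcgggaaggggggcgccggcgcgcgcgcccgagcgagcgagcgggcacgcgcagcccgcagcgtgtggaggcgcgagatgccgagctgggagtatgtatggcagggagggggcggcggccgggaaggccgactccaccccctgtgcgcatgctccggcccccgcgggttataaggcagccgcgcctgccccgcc
Pgam1, chr19:41911621-41911870, plus strand: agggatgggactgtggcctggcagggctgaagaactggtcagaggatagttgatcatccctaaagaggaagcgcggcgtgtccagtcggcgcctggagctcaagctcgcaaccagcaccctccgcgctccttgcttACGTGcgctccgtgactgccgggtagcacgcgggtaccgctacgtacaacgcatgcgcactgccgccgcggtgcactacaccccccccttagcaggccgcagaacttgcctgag
Nxnl1, chr8:71566650-71566899, minus strand: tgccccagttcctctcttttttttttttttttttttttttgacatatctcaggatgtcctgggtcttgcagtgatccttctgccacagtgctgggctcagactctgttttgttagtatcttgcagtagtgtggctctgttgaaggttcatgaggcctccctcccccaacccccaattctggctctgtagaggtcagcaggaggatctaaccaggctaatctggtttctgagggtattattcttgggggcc
Pfkp, chr13:6648778-6649021, minus strand: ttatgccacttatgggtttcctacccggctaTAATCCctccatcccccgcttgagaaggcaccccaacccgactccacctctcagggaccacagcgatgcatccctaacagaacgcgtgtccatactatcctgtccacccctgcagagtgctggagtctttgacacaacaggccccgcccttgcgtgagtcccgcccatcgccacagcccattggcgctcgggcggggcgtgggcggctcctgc

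In the 250 bases before a start, ACGTG was found in 15 of the 30 matched members and in 18.5% of the 27025 genes of the promoter table. The E-box CACGTG was found in 6 members and in 6.86% of genes, and TAATCC in 4 members and 7.21% of genes. The GC box GGGCGG was found in 19 members and in 35.4% of genes, and TATAAA in 1 member and 14.3% of genes. The members were not compared with genes of like expression or base content, so no excess of ACGTG can be called particular to them. Members with several starts had more windows to match, 46 in all for the 30 members. Of the promoters printed, that of Slc16a1 holds the E-box, that of Pgam1 holds ACGTG, that of Pfkp holds TAATCC and that of Nxnl1 holds none of these letters. A match describes the sequence only, and nothing was measured at these promoters.

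Glucose entry was led by Slc2a1, which encodes GLUT1, the main glucose transporter of the blood-retina barrier and of photoreceptors. Its level was 171, 183, 298 and 189 CPM in GF-ND and 203, 225, 242 and 306 CPM in GF-HFD. Mouse 11 was the high GF-ND library, and the other 3 GF-ND mice lay below every GF-HFD mouse. The log2 fold change was 0.22 (SE 0.19) with an edgeR adjusted p of 0.765. It ran from 0.09 without GF-HFD mouse 19 to 0.65 with the rod marker list as a covariate, and was 0.44 without mouse 11. On the rod list every GF-HFD mouse averaged above every GF-ND mouse, so a fit with this covariate cannot separate diet from rod markers. Slc2a1 was highest in mice 19 and 11, where the lens list was highest too. Mouse 10 had the next highest lens average (3.31) but a Slc2a1 level of 183 CPM. Mice 19, 11 and 16, the highest for Slc2a1, were also the highest for the pigment epithelium list (4.94, 5.25 and 5.16). Mouse 13 was lowest for that list (0.67) but lay above mice 9, 10 and 12 in Slc2a1. Slc2a3, the neuronal GLUT3, lay at 87.5 to 103 CPM over all 8 mice, with a log2 fold change of 0.04 (SE 0.08). Per kilobase of exon, Slc2a1 reached 64.8 ± 14.7 CPM and Slc2a3 13.1 ± 0.707 CPM (SD, n = 8).

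At the hexose steps, Hk1 was the member with the largest fitted increase and Pfkp the one with the largest fitted decrease. Hk1 encodes hexokinase 1, the housekeeping form that phosphorylates glucose. It measured 787, 807, 636 and 938 CPM in GF-ND and 974, 1149.9, 921 and 864 CPM in GF-HFD. The groups overlapped through GF-ND mouse 12, and mouse 11 was lowest. Its log2 fold change was 0.30 (SE 0.14, edgeR adjusted p = 0.649, exact permutation p = 0.0857). It was 0.22 without mouse 11 and 0.04 with the rod marker list as a covariate, and in neither fit did it keep an unadjusted p under 0.05. Of the fits with 1 mouse left out, only those without GF-ND mouse 12 and without GF-HFD mouse 19 kept it.

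Hk2 encodes the inducible hexokinase 2 of photoreceptors. Its level was 565, 633, 373 and 1132 CPM in GF-ND and 811, 845, 698 and 739 CPM in GF-HFD. The 4 GF-HFD mice fell inside the range of the GF-ND mice, whose coefficient of variation was 47.8% against 8.66%. GF-HFD over GF-ND gave a log2 fold change of 0.19 (SE 0.27), from 0.56 without mouse 12 to -0.24 with the rod list as a covariate, so its direction was not settled.

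Pfkp, the platelet-type phosphofructokinase, catalyses the committed step together with the liver type Pfkl and the muscle type Pfkm. Pfkp measured 755, 1082, 632 and 1072 CPM in GF-ND and 691, 646, 707 and 639 CPM in GF-HFD. GF-ND mice 10 and 12 were far above all others, mouse 9 was slightly above the GF-HFD mice and mouse 11 was lowest. On the log2 scale GF-HFD differed by -0.40 (SE 0.17, edgeR adjusted p = 0.649, exact permutation p = 0.171). The unadjusted p of 0.0379 was lost without GF-ND mouse 10, without GF-ND mouse 12 and without any 1 of the GF-HFD mice. Pfkl and Pfkm had log2 fold changes of 0.09 (SE 0.11) and 0.15 (SE 0.09). In the gene annotation, 5.58% of the exon bases of Pfkp also belong to Pitrm1 on the opposite strand.

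Gpi1, the isomerase between glucose 6-phosphate and fructose 6-phosphate, had the highest level per kilobase of this role, 124 ± 11.1 CPM (SD, n = 8). Hk2 came next at 121 ± 37.2, within its own spread of Gpi1, and Hk1 was lower at 104 ± 17.7. Gpi1 measured 751, 939, 696 and 839 CPM in GF-ND and 785, 837, 790 and 783 CPM in GF-HFD. Its log2 fold change was -0.01 (SE 0.11), and the groups overlapped throughout.

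The triose steps, from aldolase to pyruvate kinase, were the role in which all 9 members were fitted higher, with log2 fold changes from 0.07 to 0.28 and a median of 0.23. Gapdh, Pgam1 and Pkm, 3 of the 5 members whose groups did not overlap, were here. Pkm, which encodes the pyruvate kinase of the last step, measured 2092, 2390.1, 1981 and 1960.4 CPM in GF-ND and 2453, 2864, 2440.3 and 2490 CPM in GF-HFD. Mouse 15 was the highest and GF-ND mouse 10 came within a small distance of the lowest GF-HFD mouse. The log2 fold change was 0.28 (SE 0.11, edgeR adjusted p = 0.649, exact permutation p = 0.0286, the smallest that 4 against 4 mice allow), or a fold of 1.22. It was 0.26 without mouse 11, and 0.17 with the rod list as a covariate, where the unadjusted p was no longer under 0.05. That p was also lost without GF-ND mouse 9 or 12 and without GF-HFD mouse 15.

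Pgam1 encodes the phosphoglycerate mutase that moves the phosphate before enolase acts. It measured 250, 235, 259 and 263 CPM in GF-ND and 308, 331, 271 and 286 CPM in GF-HFD. All GF-HFD mice were higher, with mouse 16 nearest to the GF-ND mice. Its log2 fold change was 0.25 (SE 0.09, edgeR adjusted p = 0.649, exact permutation p = 0.0286). It stayed between 0.20 and 0.37 in all 18 alternative fits, and its unadjusted p stayed under 0.05 in 15 of them. That p was lost with the rod list as a covariate, without GF-ND mouse 10 and without GF-HFD mouse 15.

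Gapdh, the dehydrogenase that yields NADH, is often used as a reference gene. It measured 1886, 1892, 1949 and 1565 CPM in GF-ND and 2011, 2533, 1965 and 2196 CPM in GF-HFD. Mouse 12 was low among the GF-ND mice, and GF-HFD mouse 16 exceeded GF-ND mouse 11 by little. GF-HFD over GF-ND gave a log2 fold change of 0.26 (SE 0.12, edgeR adjusted p = 0.649, exact permutation p = 0.0286).

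Aldoa, the main aldolase, had the highest level per kilobase of all 33 members, 608 ± 58.6 CPM (SD, n = 8), ahead of Gapdh at 484 ± 67.2 and Pkm at 467 ± 61.3. It led under both measures of gene length used, but the order behind it did not hold. With the longest transcripts Pkm (960 CPM) and Eno1 (830 CPM) lay above Gapdh (608 CPM). Aldoa measured 1623, 1808, 1556 and 1595 CPM in GF-ND and 1827, 2059.6, 1783 and 1898 CPM in GF-HFD. GF-ND mouse 10 lay above GF-HFD mouse 16, and otherwise the groups were separate. On the log2 scale GF-HFD differed by 0.20 (SE 0.10). The remaining members of the role, Aldoc, Tpi1, Pgk1, Eno1 and Eno2, had log2 fold changes of 0.07 to 0.23, and their groups overlapped. That of Aldoc was 0.32 without mouse 11, with an unadjusted p under 0.05.

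Several triose genes share sequence with pseudogenes or copies, and reads from them could have been split or dropped in counting. Windows of 100 bases found in another annotated gene made up 51.7% of the windows of Pgk1, 33.9% of Pgam1, 20.9% of Gapdh, 20.4% of Eno1 and 12.3% of Pkm. Gapdh shared its windows with 86 other genes. The values of these members are uncertain to that extent, whereas no window of Aldoa, Aldoc, Eno2, Slc16a1 or Nxnl1 was shared.

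Both lactate dehydrogenase genes were fitted higher. Ldha encodes the subunit that favours lactate formation, and Ldhb the subunit that favours the reverse reaction. Ldha measured 1044, 1019, 798 and 1133 CPM in GF-ND and 1127, 1386, 1070.2 and 1185 CPM in GF-HFD. The groups overlapped, with mouse 11 lowest and mouse 15 highest. The log2 fold change was 0.26 (SE 0.13, edgeR adjusted p = 0.655) and 0.01 with the rod list as a covariate.

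Ldhb measured 141, 131, 136 and 110.2 CPM in GF-ND and 131, 167, 155 and 163 CPM in GF-HFD. Only GF-HFD mouse 13 lay within the GF-ND range. Its log2 fold change was 0.25 (SE 0.10, edgeR adjusted p = 0.649, exact permutation p = 0.0857), and 0.26 with the rod list as a covariate. Its unadjusted p stayed under 0.05 without any 1 of GF-ND mice 9 and 11 and GF-HFD mouse 13, and did not when any other mouse was left out.

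The role of lactate export and its partners held the other 2 members whose groups did not overlap, Slc16a1 and Nxnl1. Of these only Slc16a1 encodes a lactate carrier. Slc16a1 encodes MCT1, a proton-coupled carrier of lactate and pyruvate. It measured 265, 258, 257 and 226 CPM in GF-ND and 293, 329, 299 and 276 CPM in GF-HFD. GF-ND mouse 9 and GF-HFD mouse 19 were the nearest pair. GF-HFD over GF-ND gave a log2 fold change of 0.25 (SE 0.09, edgeR adjusted p = 0.649, exact permutation p = 0.0286), and it lay between 0.20 and 0.33 in the 18 alternative fits. Of these fits, 16 kept its unadjusted p under 0.05, the most of any member. That p was lost without GF-HFD mouse 15 and with the rod list as a covariate.

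Nxnl1 encodes the rod-derived cone viability factor, whose short form binds a basigin variant with GLUT1 on cones and promotes glucose entry. It measured 285, 286, 200.5 and 289 CPM in GF-ND and 343, 354, 334 and 299 CPM in GF-HFD. Mouse 11 was far below the other GF-ND mice, which lay close together and under all GF-HFD mice. On the log2 scale GF-HFD differed by 0.33 (SE 0.12, edgeR adjusted p = 0.649, exact permutation p = 0.0286). It was 0.22 without mouse 11, and 0.06 with the rod list as a covariate, where the unadjusted p was no longer under 0.05. That p was also lost without GF-HFD mouse 13, 15 or 16. The gene is expressed in photoreceptors, and both it and the rod list were lowest in mouse 11 and highest in mouse 15. The rod list was higher in every GF-HFD mouse than in any GF-ND mouse, so the fit with it cannot separate diet from rod markers.

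Bsg, the basigin that carries MCT1, MCT3 and MCT4 to the membrane, had the highest level per kilobase of the role, 318 ± 49.1 CPM (SD, n = 8). It measured 522, 497, 703 and 427 CPM in GF-ND and 597, 628, 609 and 635 CPM in GF-HFD. Mouse 11 was the highest of all 8 and the other 3 GF-ND mice were the lowest. The log2 fold change was 0.20 (SE 0.14, edgeR adjusted p = 0.718). It was 0.36 without mouse 11, with an unadjusted p under 0.05, and 0.105 without mouse 12. Counts per gene do not separate the short basigin from the photoreceptor form that binds the cone viability factor.

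Slc16a8 encodes MCT3, the lactate carrier of the pigment epithelium. It measured 3.25, 3.89, 39 and 4.78 CPM in GF-ND and 3.44, 9.09, 17.4 and 7.09 CPM in GF-HFD. Mouse 11 and then mouse 16 were high, as they were for the pigment epithelium list. Mouse 19, in which that list averaged 4.94, lay below mouse 15, in which it averaged 2.86. Its log2 fold change was -0.46 (SE 0.80) with mouse 11 and 1.22 without it, so its direction rests on that library. For Slc16a3, the MCT4 of glycolytic cells, the log2 value was 0.24 (SE 0.18). It was 0.47 without GF-ND mouse 12, with an unadjusted p under 0.05, but 0.15 without mouse 11 and 0.07 with the rod list as a covariate. For Slc16a7, the high-affinity MCT2, it was -0.12 (SE 0.09).

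**Figure D2:**
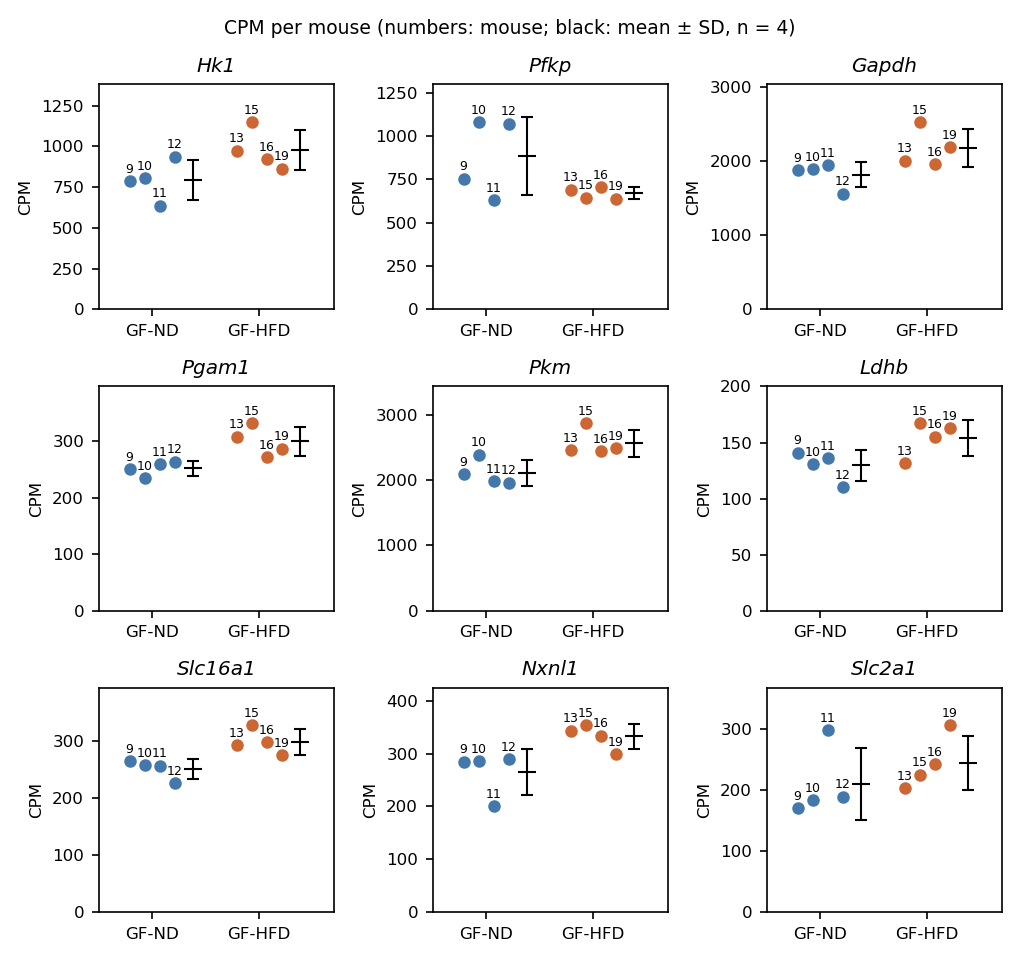
CPM in each mouse for 9 members, with GF-ND in blue, GF-HFD in orange, the mouse number above each point, and the mean ± SD of each group (n = 4) in black. In Gapdh, Pgam1, Pkm, Slc16a1 and Nxnl1 the groups do not overlap. In Pfkp mice 10 and 12 lie above the rest, and in Slc2a1 mouse 11 lies above the other GF-ND mice.

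Pyruvate dehydrogenase joins glycolysis to the citric acid cycle, and its kinases switch it off. Pdhb, the E1 beta subunit, had the highest level per kilobase of this role, 26.6 ± 1.88 CPM (SD, n = 8). It measured 101, 113, 91.7 and 112 CPM in GF-ND and 100.3, 106, 104 and 95.5 CPM in GF-HFD, and the groups overlapped throughout. Its log2 fold change was -0.04 (SE 0.08). The E1 alpha subunit Pdha1 differed by 0.16 (SE 0.09) on the log2 scale and the E2 subunit Dlat by 0.18 (SE 0.08). Of the kinases, Pdk2 and Pdk3 had log2 fold changes of 0.20 (SE 0.18) and 0.19 (SE 0.09), and Pdk1 one of -0.02 (SE 0.17), whose sign changed in 7 of 18 alternative fits. The value of Pdk2 was 0.39 without mouse 11 and 0.09 without mouse 12. No member of this role had an unadjusted p under 0.05.

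The bifunctional enzymes that make and remove fructose 2,6-bisphosphate, an activator of phosphofructokinase, were the role in which both members were fitted lower. Pfkfb2 measured 270.5, 356, 179 and 358 CPM in GF-ND and 289, 254, 249 and 234 CPM in GF-HFD. As with Pfkp, mice 10 and 12 were highest and mouse 11 lowest. GF-HFD over GF-ND gave a log2 fold change of -0.18 (SE 0.19, edgeR adjusted p = 0.815). It was -0.35 without mouse 11, with an unadjusted p under 0.05, and -0.07 without mouse 12. Its level per kilobase was 37.7 ± 8.34 CPM against 7.89 ± 0.860 CPM for Pfkfb3 (SD, n = 8), and the log2 fold change of Pfkfb3 was -0.04 (SE 0.11). Of the windows of Pfkfb2, 15.2% were shared with other genes, Yod1 among them.

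Isoform use was compared in 9 families as the share of each gene in the counts per kilobase of exon of its family. The same gene led in every mouse in 7 of the 9. Slc2a1 made up 81.8% ± 2.91 of its pair in GF-ND and 83.7% ± 2.62 in GF-HFD (SD, n = 4), Aldoa 80.9% ± 5.23 and 82.2% ± 1.54, and Eno1 71.8% ± 1.24 and 74.0% ± 1.24. Ldha made up 78.3% ± 3.88 and 78.5% ± 1.76, Slc16a1 77.4% ± 7.34 and 79.8% ± 1.65, Pfkfb2 82.5% ± 5.52 and 81.9% ± 2.12, and Pdk2, the least dominant leader, 47.4% ± 6.03 and 49.3% ± 4.42. None of these shares moved by more than its SD in GF-ND, except that of Eno1.

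The hexokinases and phosphofructokinases had no settled leader. Hk2 made up 53.1% ± 7.44 in GF-ND and 53.1% ± 1.81 in GF-HFD when lengths were taken over all annotated exons, but 38.3% ± 7.23 and 38.1% ± 1.71 with the longest transcript of each gene, so which of the 2 is higher depends on the length used. Pfkp made up 39.2% ± 5.46 of the phosphofructokinases in GF-ND and 31.5% ± 2.33 in GF-HFD, while Pfkl made up 33.1% ± 1.90 and 36.9% ± 2.13 and Pfkm 27.7% ± 5.16 and 31.6% ± 1.18. Pfkp led in 4 mice and Pfkl in the other 4, and with the longest transcripts they led in 2 and 6.

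**Figure D3:**
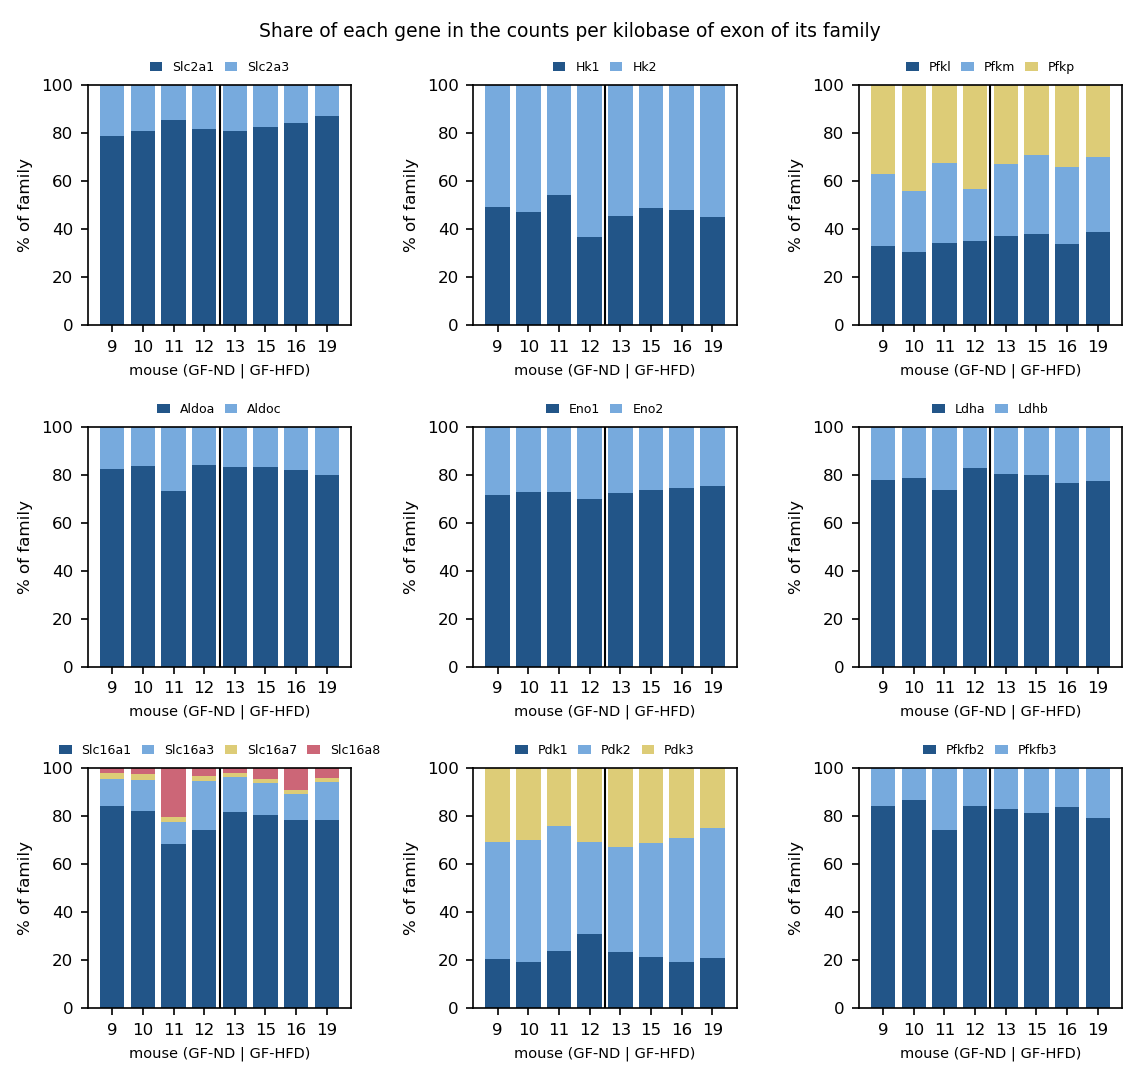
Share of each gene, in percent, of the counts per kilobase of exon of its family in each mouse, with GF-ND mice to the left of the line and GF-HFD mice to the right. Pfkp takes a smaller share in GF-HFD on average (31.5% against 39.2%), and mouse 11 has the largest share of Slc16a8, Aldoc and Pfkfb3.

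Differences in isoform use were tested on the log2 ratio of counts of 2 isozymes in the same library, in which scaling and gene length cancel. In 12 of the 13 ratios the groups overlapped. The exception was Slc16a7 over Slc16a1, at -3.74, -3.74, -3.56 and -3.61 in GF-ND and -3.95, -4.15, -4.06 and -3.95 in GF-HFD. The difference was -0.37 (exact permutation p = 0.0286, 0.371 after Benjamini-Hochberg adjustment over the 13 ratios). Pfkp over Pfkm differed by -0.52 and Eno2 over Eno1 by -0.16, each with an exact permutation p of 0.0857 (0.371 adjusted). Hk2 over Hk1, Ldhb over Ldha and Slc16a3 over Slc16a1 differed by -0.002, -0.01 and 0.03, with exact permutation p of 1, 0.971 and 0.914. Counts per gene cannot separate the M1 and M2 forms of pyruvate kinase, which are splice forms of Pkm.

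Marker lists of rods and of neighbouring tissues differed between the same mice. All 18 rod markers were fitted higher in GF-HFD, with a median log2 fold change of 0.34. The rod list averaged 10.5 on the log2 CPM scale in mouse 11, 11.1 in the other GF-ND mice and 11.2 to 11.5 in GF-HFD mice, with none of its genes at 0. Mouse 15, the highest for rods, was also the highest of all 8 mice in 17 of the 33 members. The share of all genes highest in that mouse is not given here, so this count cannot be called particular to the members. In the rod list every GF-HFD mouse (lowest 11.18, mouse 19) lay above every GF-ND mouse (highest 11.13, mouse 10). A fit with this list as a covariate therefore cannot separate diet from rod markers. With the rod list as a covariate the median of the members was 0.15. Slc2a1, Aldoc, Slc16a8, Bsg, Pdha1, Dlat and Pdk2 were then higher at an unadjusted p under 0.05, beside 11.8% of all genes tested. Pfkp and Pfkfb2 were lower by that rule, beside 11.4% of all genes. The pigment epithelium list summed to 435 to 1436 CPM in GF-ND and 380 to 1124 CPM in GF-HFD, with 6 of 12 genes fitted higher and none at 0. The lens list summed to 179 to 72600 CPM and 229 to 12080 CPM, with 0 of 20 genes fitted higher and none at 0. Vessel and immune cell lists were mostly fitted higher too. Of the endothelium list 10 of 12 genes were fitted higher, with a median log2 fold change of 0.25 and sums of 275 to 384 CPM in GF-ND and 348 to 414 CPM in GF-HFD. Microglia and macrophage markers were fitted higher in 11 of 12 genes (median 0.28), summing to 36.5 to 68.0 CPM and 49.4 to 76.7 CPM. Fibroblast markers, fitted higher in 9 of 12 genes (median 1.24), summed to 16.4 to 223 CPM and 20.9 to 352 CPM. Skeletal muscle markers were low, at 9.26 to 18.3 CPM and 7.79 to 50.8 CPM, and 11 of 13 tested genes were fitted higher (median 1.15). For cones and Mueller glia 8 of 12 and 9 of 12 genes were fitted higher, with medians of 0.15 and 0.08. No gene of these lists was at 0 in all mice. The part of the marker lists in the members' differences was not tested beyond these fits.

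**Figure D4:**
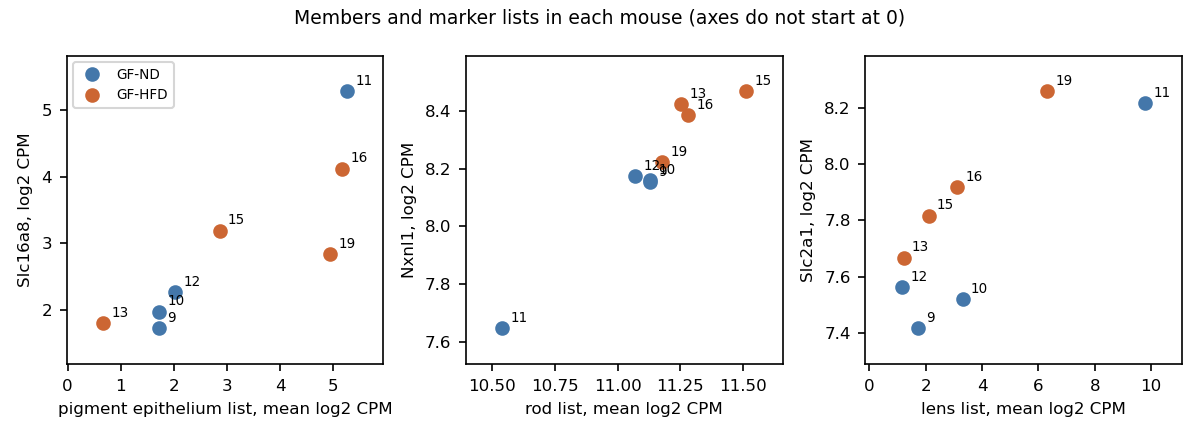
Log2 CPM of 3 members against the mean log2 CPM of a marker list in each of the 8 mice, with GF-ND in blue and GF-HFD in orange. Slc16a8 is highest in mouse 11, where the pigment epithelium list is highest (5.25), Nxnl1 is lowest in mouse 11, where the rod list is lowest (10.5), and Slc2a1 is highest in mice 19 and 11, where the lens list is highest.

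Most members varied more among GF-ND than among GF-HFD mice. The coefficient of variation was larger in GF-ND in 27 of 33 members, with a median of 11.2% against 7.88%. Without mouse 11 it was larger in 20 members, with a median of 9.73% in GF-ND. No such share over all genes is given here, so the larger spread cannot be called particular to these members. Among the GF-ND mice, mouse 11 was highest in 14 members and lowest in 12. On the log2 scale it exceeded the mean of the other GF-ND mice by 3.3 in Slc16a8, 0.79 in Aldoc, 0.72 in Slc2a1, 0.64 in Pdk2, 0.55 in Bsg and 0.51 in Pdk1. It was below them in Hk2 (-0.99), Pfkfb2 (-0.86), Pfkp (-0.60) and Nxnl1 (-0.52). These 10 members were those with a deviation over 0.5 in size.

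**Figure D5:**
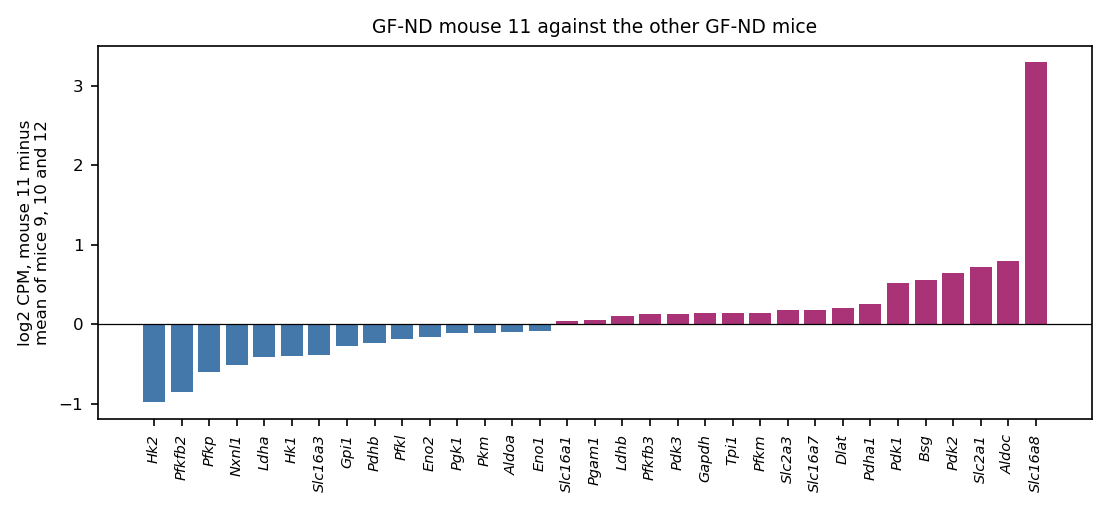
Log2 CPM of GF-ND mouse 11 minus the mean of GF-ND mice 9, 10 and 12 for each of the 33 members, in order of size. Slc16a8 stands at 3.3, and Hk2 and Pfkfb2 are the lowest at -0.99 and -0.86.

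Of 105 further genes of the surrounding pathways, 99 were tested and 62 were fitted higher, with 6 higher and 3 lower at an unadjusted p under 0.05. Of all 26900 genes 12454 were fitted higher, and 2.85% were higher and 4.53% lower by the same rule. None of the 99 passed the adjusted threshold in edgeR with all mice. In DESeq2 Eno3 did, as lower, and in edgeR without mouse 11 Gckr, the regulator of glucokinase, did as lower and Suclg1, a subunit of succinate-CoA ligase, as higher. In the citric acid cycle 15 of 18 genes were fitted higher, with a median log2 fold change of 0.16. Sdha, Sdhc, Fh1 and Mdh1 were among those higher at an unadjusted p under 0.05. Sdhc, a membrane anchor of succinate dehydrogenase, measured 75.4, 64.6, 71.1 and 61.1 CPM in GF-ND and 79.5, 88.2, 80.2 and 82.9 CPM in GF-HFD. The groups did not overlap, as was also the case for the catalytic subunit Sdha and for malate dehydrogenase Mdh2. The log2 fold change of Sdhc was 0.28 (SE 0.08, edgeR adjusted p = 0.649, exact permutation p = 0.0286).

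Among other glycolytic isozymes, 8 of 17 tested genes were fitted higher. Eno3, the muscle enolase, measured 24.2, 33.4, 32.3 and 28.8 CPM in GF-ND and 20.1, 19.7, 19.8 and 23.6 CPM in GF-HFD. Every GF-HFD mouse lay below every GF-ND mouse. On the log2 scale GF-HFD differed by -0.51 (SE 0.12, edgeR adjusted p = 0.649, exact permutation p = 0.0286), in the opposite direction to Eno1 and Eno2. The DESeq2 adjusted p of Eno3 was 0.0376. Bpgm, which makes 2,3-bisphosphoglycerate and is abundant in red blood cells, had a log2 fold change of 0.27 (SE 0.10) with groups that did not overlap. The red blood cell list moved with it, with 8 of 8 tested genes fitted higher and sums of 6.89 to 12.9 CPM in GF-ND and 16.7 to 38.7 CPM in GF-HFD, and its part in the value of Bpgm was not tested.

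The other lists gave few differences. G6pdx, the first enzyme of the pentose phosphate pathway, was fitted higher by 0.19 (SE 0.09) on the log2 scale without overlap of the groups. Mlxip, the glucose-responsive factor MondoA, had a log2 fold change of -0.29 (SE 0.12), likewise without overlap, and Slc5a8, a sodium-coupled monocarboxylate carrier, one of -0.41 (SE 0.17). Fitted higher were 7 of 11 other glucose transporters, 8 of 9 genes of pyruvate entry and the rest of pyruvate dehydrogenase, 7 of 13 other monocarboxylate transport genes, 2 of 5 gluconeogenic genes, 7 of 13 pentose phosphate and polyol genes, and 8 of 13 regulators. Tkt, the transketolase, was the most abundant pentose phosphate gene at 265 ± 181 CPM in GF-ND and 244 ± 54.0 CPM in GF-HFD (SD, n = 4), with its GF-ND spread set by mouse 11. Nptn, a relative of basigin that also binds monocarboxylate transporters, stood at 269 ± 9.98 and 286 ± 16.5 CPM, and Dld, the E3 subunit of pyruvate dehydrogenase, at 129 ± 3.64 and 139.9 ± 7.93 CPM. Hif1a, the oxygen-regulated factor that drives many glycolytic genes, measured 584, 567, 749 and 575 CPM in GF-ND and 709.7, 752, 703 and 678 CPM in GF-HFD. Mouse 11 overlapped the GF-HFD mice, and the other 3 GF-ND mice lay below them. With all mice the log2 fold change of Hif1a was 0.20 (SE 0.11, edgeR adjusted p = 0.662, exact permutation p = 0.114).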

How the data were processed

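Whole-retina RNA of 8 mice, 1 retina and 1 library per mouse, was sequenced as 100-bp read pairs. Per the submitters' processing notes, alignment to GRCm38 was with STAR 2.4.2 and counting with featureCounts (Subread 1.4.6-p1). The authors deposited the raw counts of each gene symbol in separate tables for each library, neither scaled nor filtered. The strand setting is not given in the sources used here, so overlapping genes on opposite strands may share reads. The ratio of even to odd counts among values up to 12 was 1.91 to 2.36, so the reads of a pair may often have been counted separately, and a count is not known to be 1 fragment.

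Groups follow the library names. GF-HFD was compared with GF-ND over all genes with at least 10 counts in total (26900 genes) by edgeR 4.0.16 in R 4.3.3 with TMM scaling (factors 0.949 to 1.04), the quasi-likelihood test and Benjamini-Hochberg adjustment over all of them, and values are given for the members, for further pathway genes and for marker lists. P-values of single values and ratios are from two-sided exact permutation tests over the 70 arrangements of 4 against 4 mice, which cannot go below 0.0286. Log2 CPM used a prior count of 2 and log2 ratios a pseudocount of 0.5. A paper threshold of p under 0.01 with a log2 fold change over 1 was passed by no member. Alternatives were DESeq2 1.42.0, limma 3.58.1 (voom), other scalings and filters, marker covariates and libraries left out. The fit without mice 11, 16 and 19 and the shares among genes of at least 10 CPM were added after seeing the data. Positions and lengths are from another GENCODE release on GRCm38 (53528 of 55213 symbols matched), and promoters from RefSeq on GRCm38.p6.

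The members and all gene lists were chosen with earlier results of these data known. Values in every mouse are given for members with an unadjusted p under 0.05, members whose groups did not overlap and the member of each role with the highest level per kilobase. Hk2, Slc16a8 and Suclg1 were added after their values were seen. Further pathway genes are named when they met either of the first 2 conditions, or from the 2 genes of their list with the highest mean CPM. A pathway gene that met this rule is not reported here.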

Additional observations from a re-analysis of the deposited data

Results flagged for a closer look

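In groups of 4 mice, a value was singled out when its gap to the nearest other mouse, divided by the range of the group, exceeded Dixon's critical value at the 95% level for 4 values. Chance singles out about 1 in 20 groups, and 17 of 160 groups examined were singled out, 8 of them in GF-ND mouse 11. In that mouse Slc2a1 stood at 297.5 CPM (other GF-ND mice 170.7 to 189.1), Slc16a8 at 39 CPM (3.25 to 4.79), Nxnl1 at 200.5 CPM (284.8 to 288.8), the transketolase Tkt at 535 CPM (148 to 197) and Hif1a at 748.8 CPM (567.1 to 584.2). In the same mouse the rod list averaged 10.54 on the log2 CPM scale (11.07 to 11.13), the cone list 5.82 (6.41 to 6.43) and the pigment epithelium list 5.25 (1.72 to 2.02).

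GF-HFD mouse 15 was high in Gpi1 at 837.3 CPM, in Pkm at 2864 CPM and in Bpgm at 81.0 CPM, against 783.3 to 789.5, 2440 to 2490 and 64.8 to 67.5 CPM in the other GF-HFD mice. GF-HFD mouse 19 was low in Pdk3 at 27.7 CPM (31.7 to 32.0) and high in Eno3 at 23.6 CPM (19.7 to 20.1). GF-ND mouse 12 was low in Gapdh at 1565 CPM (1886 to 1949) and in G6pdx at 58.5 CPM (70.3 to 71.5). GF-ND mouse 10 was high in Slc5a8 at 10.9 CPM (7.37 to 7.76). The skeletal muscle list averaged -0.84 on the log2 CPM scale in GF-ND mouse 9 (-1.78 to -1.70 in the other GF-ND mice). Whether these values are technical or belong to the mice was not tested.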

How the results depend on the processing

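Of the 33 members, 25 kept the direction of their fold change in all 18 alternative fits and 8 did not. No member passed the adjusted threshold in any of them, and the smallest adjusted p of a member was 0.0508, without mouse 11. The number of members higher at an unadjusted p under 0.05, 6 as reported, was 2 with library totals without TMM, 10 with DESeq2, 11 with limma-voom, 17 with lens markers as a covariate, 17 without mice 11 and 19, 13 without mice 11, 16 and 19, and 0 to 16 when 1 mouse was left out (0 without GF-HFD mouse 15, 16 without GF-ND mouse 11). The share of all genes higher by the same rule, 2.85% as reported, was 1.55%, 2.83%, 3.23%, 7.24%, 9.51% and 7.28% in these fits in turn, and 1.63% to 12.1% with 1 mouse left out. The number lower, 1 as reported, was 2 with rod markers as a covariate and 2 without mice 11 and 19. It was 0 to 2 with 1 mouse left out. The share of all genes lower by the same rule, 4.53% as reported, was 11.4%, 9.75% and 2.97% to 11% in these fits in turn. The number lying wholly higher, 5 as reported, was 0 with library totals, 12 without mice 11 and 19, 17 without mice 11, 16 and 19, and 5 to 12 with 1 mouse left out. Groups of fewer mice lie apart more often, and the share of all genes lying wholly higher was then 12.1%, 17.6% and 2.89% to 9.67%. Over all genes DESeq2 called 53 and limma-voom 0, and the fit without mouse 11 called 421, at an adjusted p under 0.05. In edgeR 766 genes were higher and 1219 lower at an unadjusted p under 0.05, and with library totals 416 and 1482. Library totals also moved the median log2 fold change of all genes from -0.03 to -0.07.

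The log2 fold change changed sign in Slc2a3 with library totals (-0.0008). With limma-voom it was 0.18 in Slc16a8 and 0.0182 in Pdk1, and with lens markers as a covariate 0.66 and 0.0168. With rod markers as a covariate it was -0.24 in Hk2, -0.0523 in Eno2, 2.04 in Slc16a8, 0.27 in Pdk1 and 0.0392 in Pfkfb3. Without mice 11 and 19 it was 1.32 in Slc16a8 and 0.0869 in Pdk1, and without mice 11, 16 and 19 it was 0.66 in Slc16a8, 0.12 in Pdk1 and 0.0397 in Pfkfb3. With 1 mouse left out it ran from -0.0024 to 0.56 in Hk2, -0.0715 to 0.0624 in Gpi1, -0.0358 to 0.32 in Aldoc, -0.96 to 1.22 in Slc16a8, -0.14 to 0.12 in Pdk1 and -0.11 to 0.0288 in Pfkfb3.

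The number of isoform ratios with groups apart, 1 as reported, was 3 without mice 11 and 19, 3 without mice 11, 16 and 19, and 1 to 3 with 1 mouse left out. Without mice 11 and 19 the ratio Aldoc over Aldoa differed by 0.0664, the ratio Ldhb over Ldha by 0.092, the ratio Slc16a3 over Slc16a1 by -0.16 and the ratio Slc16a8 over Slc16a1 by 0.76. Without mice 11, 16 and 19 the ratio Aldoc over Aldoa differed by 0.0277, Slc16a3 over Slc16a1 by -0.0636 and Slc16a8 over Slc16a1 by 0.19. With 1 mouse left out the ratio Hk2 over Hk1 ran from -0.15 to 0.20, Pfkl over Pfkm from -0.14 to 0.0827, Aldoc over Aldoa from -0.19 to 0.14, Ldhb over Ldha from -0.15 to 0.12, Slc16a3 over Slc16a1 from -0.079 to 0.27, Slc16a8 over Slc16a1 from -0.47 to 0.74, Pdk2 over Pdk1 from -0.0297 to 0.32 and Pfkfb3 over Pfkfb2 from -0.0541 to 0.34. The ratio Slc16a7 over Slc16a1 lay between -0.39 and -0.33 in all these settings. The order of isoforms per kilobase was the same with the longest transcript in 7 of 9 families. The causes were not tested.

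With 4 mice a group, differences of the size seen here are close to the spread between mice. Groups share no replicate numbers and the sources used here name no pairing, so the mice were compared as unpaired. Shared sequence, overlapping genes and the unknown strand setting limit Pgk1, Pgam1, Gapdh, Eno1, Pkm, Pfkfb2, Pfkp and Pdha1 among others (16.1% of the exon bases of Pdha1 also belong to Map3k15 on the opposite strand).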
